A study of Mus musculus with 3 samples.

Results

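A stretch of mouse chromosome 7 in which exome DNA of 2 animals held almost no counts of the B6 allele is described here, with its edges and its genes. Its members were chosen by position and by measured allele counts: all SNPs that the library files list on chromosome 7 from 28500000 to 37000000 (GRCm38), 2750 of the 452304 SNPs of the series, none of them listed more than once. Of these, 2194 lay in the interval between the edges found below and 556 in its flanks. The files list 200 genes with SNPs in the window, of which 157 lay in the interval, 120 of them with 10 or more counts in each library. The annotation places 131 protein-coding genes whole between the edge SNPs, and 108 of those had a listed SNP.

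The DNA came from sorted lymphocytes of 3 female recipient mice, 1 library per animal, whose grafted hematopoietic stem cells (HSCs) were the F1 progeny of C57BL/6 mothers (B6, named C57BL/6J in the methods) and CAST/EiJ (CAST) fathers. E6.2 was a polyclonal animal, which received 50 HSCs of donor animal 6 and gave 58000 B220+IgM+ B cells. E6.43 was monoclonal, with 1 HSC of the same donor and 250000 CD4+CD8- T cells of the thymus, and E15.10 was monoclonal, with 1 HSC of donor animal 15 and 177000 such T cells. The recipients were F1 animals too, irradiated below the lethal dose, and carried Ly5.1 on the B6 side where the donors carried Ly5.2. The methods give ages only as ranges over all animals of the study, and cells were taken after weeks of reconstitution. Clonality, cell type and animal cannot be told apart with these libraries, markers of the sorted cells cannot be read from DNA, and without replicates no difference between libraries was tested. The 3 files hold 19471576 allelic counts of E6.2, 13036005 of E6.43 and 10863972 of E15.10. Where 3 values follow each other below without a library's name, they are in this order.

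Allelic imbalance (AI) is the share of B6 counts among B6 and CAST counts at a SNP or summed over the SNPs of a gene. An autosomal SNP of an F1 mouse carries both alleles, and its DNA then gives an AI near the middle of the scale. Loss of heterozygosity (LOH) is the state in which the cells keep sequence of only one parent over a stretch of chromosome. It can come from a deletion, which leaves a single copy, or from a mitotic exchange or a conversion tract, in which the copy of one parent is replaced by that of the other and the copy number stays as it was. Alleles in LOH move together over neighbouring genes, whatever those genes do, up to the points where the tract begins and ends. The band of chromosome 7 at issue is dense in genes and holds genes of myeloid and lymphoid cells, among them *Cebpa* and *Cd22*, beside a cluster of zinc finger genes, the hepcidin genes and families of secretoglobins.

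The sequences around the SNPs that bound the interval are shown first, since the whole description turns on them. Each is the plus strand of the reference, which is the B6 allele, with the SNP in capitals. The files do not pair the position with the CAST base, and none is given.
Last balanced SNP on the left, chr7:29579174-29579274: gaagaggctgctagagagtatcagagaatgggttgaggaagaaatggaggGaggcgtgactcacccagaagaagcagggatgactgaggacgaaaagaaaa
First SNP of the interval, in *Catsperg2*, chr7:29697632-29697660: aggccacctatgctGtcttagcttgaaca
Last SNP of the interval, in *E130304I02Rik*, chr7:35802598-35802698: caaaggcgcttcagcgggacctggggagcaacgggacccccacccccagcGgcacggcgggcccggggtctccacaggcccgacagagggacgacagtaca
First balanced SNP on the right, in *Tshz3*, chr7:36768866-36768966: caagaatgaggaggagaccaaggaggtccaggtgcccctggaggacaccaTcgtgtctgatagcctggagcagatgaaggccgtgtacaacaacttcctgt
The 31 bases centred on each of these SNPs, with any base at the SNP itself, occurred at 1 place in the chromosomes of GRCm38.

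Both edges fell between the same SNPs in E6.2 and E6.43, the right one of E6.43 through a choice between tied positions that is described below. They were placed by the pair of breakpoints that left the fewest SNPs of 10 or more counts on the wrong side, where the inside was read as AI under 0.25. In E6.2 this left 7 of 1330 SNPs on the wrong side, 6 of them inside, and in E6.43 it left 9 of 1249, 3 of them inside. The interval ran from 29697646 to 35802648, or 6.11 Mb from its first to its last SNP, and from balanced SNP to balanced SNP it could measure up to 7.19 Mb. The AI values used here also chose the interval, so that the counts inside it are a description.

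The left edge lay in a gap of 118 kb between position 29579224 and position 29697646, in which no SNP was listed. The outer SNP belongs to ENSMUSG00000051976, which has no symbol in the annotation used, and its position falls in an exon of *4930432E11Rik*. It had 56 B6 counts of 105, 20 of 43 and 45 of 76, which are AI values of 0.533, 0.465 and 0.592. The inner SNP lies in an exon of *Catsperg2*, a gene for a subunit of the sperm calcium channel complex, coding in one transcript and untranslated in another. There, 4 of 179 counts of the polyclonal E6.2 and 0 of 139 of the monoclonal E6.43 were of B6, against 38 of 81 in E15.10. All 3 libraries were thus balanced at the outer SNP, and only the libraries of donor animal 6 changed at the inner one. The next 4 SNPs on either side showed the same step, since the 5 outer SNPs had AI values from 0.525 to 0.58 in E6.2 and from 0.465 to 0.613 in E6.43, and the 5 inner ones from 0 to 0.0439 and from 0 to 0.0699. In E15.10 the 5 outer SNPs ran from 0.548 to 0.625 and the 5 inner ones from 0.469 to 0.618. Besides the ends of *4930432E11Rik* and *Catsperg2*, the annotation puts only *n-R5s153* in this gap. *Catsperg1*, the neighbouring gene of the same family, lay outside the interval, with AI values of 0.512 in E6.2 and 0.513 in E6.43, against 0.525 in E15.10.

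On the right, the edge was far less closely bounded, because 966 kb without a counted SNP separated position 35802648 from position 36768916. The inner SNP lies in an exon of the antisense gene *E130304I02Rik*, where it overlaps an exon of the zinc finger gene *Zfp507*, and was thinly covered. It had 5 B6 counts of 35, 0 of 10 and 10 of 24, and 0 of 10 counts allows an AI of up to 0.3. The 4 SNPs before it, all in *Zfp507*, were better covered, and the one at 35795310 had 3 B6 counts of 210, 0 of 103 and 68 of 133. *Zfp507* therefore lay inside on its own counts, whichever side the last SNP is put on. The outer SNP lies in the coding sequence of *Tshz3*, which encodes a zinc finger homeobox factor, and had 40 B6 counts of 77, 26 of 52 and 17 of 51. The next SNP of *Tshz3*, at 36769028, had 2 of 19 in E6.43, 15 of 33 in E6.2 and 7 of 24 in E15.10, and this value made a tie in E6.43 between an edge before *Tshz3* and one inside it. The tie was given to the shorter interval, a choice made after seeing the data. The whole of *Tshz3* was balanced, with 517 of 990, 327 of 709 and 402 of 861 B6 counts. In the right gap the files list 1 SNP, with 0 counts in every library, and the annotation names no protein-coding gene other than parts of *Zfp507* and *Tshz3*.

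**Figure D1:**
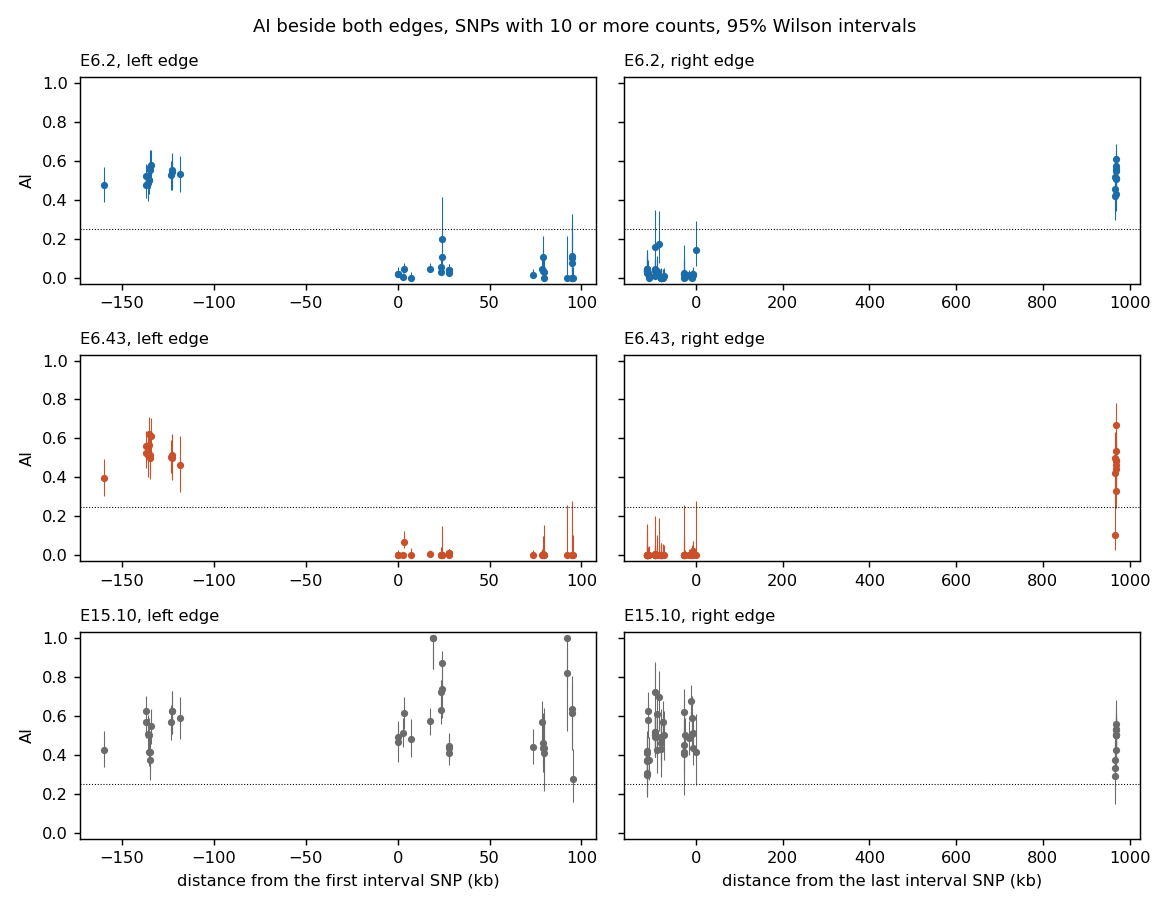
AI (B6 counts over both) of SNPs with 10 or more counts beside the left and right edges, against distance in kb from the first or last SNP of the interval, with bars for 95% Wilson intervals. E6.2 and E6.43 fall from near 0.5 to near 0 across an uncovered gap on the left and rise again after a wider one on the right, while E15.10 shows no such step, and the dotted line marks 0.25.

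Inside the interval, 989 SNPs had 10 or more counts in E6.2 and 917 in E6.43, against 955 in E15.10, at a median of 69.0, 51.0 and 66.0 counts. AI was under 0.25 at 983 of them in E6.2 and at 914 in E6.43, against 12 in E15.10, where over all autosomes, the interval included, 2.31%, 2.48% and 1.82% of such SNPs were under it. Their median AI values were 0.0194, 0 and 0.545. No B6 count at all was seen at 300 SNPs of the interval in E6.2 and at 820 in E6.43, and each of the 955 SNPs in E15.10 had at least one. The libraries of donor animal 6 thus shared a depleted allele and differed in the share of its counts that remained. In the left flank, 331 SNPs in E6.2 had AI values with a median of 0.535, and 322 in E6.43 with a median of 0.524, of which 1 and 5 were under 0.25. The 10 counted SNPs of the right flank had medians of 0.517 and 0.475 in these libraries.

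**Figure D2:**
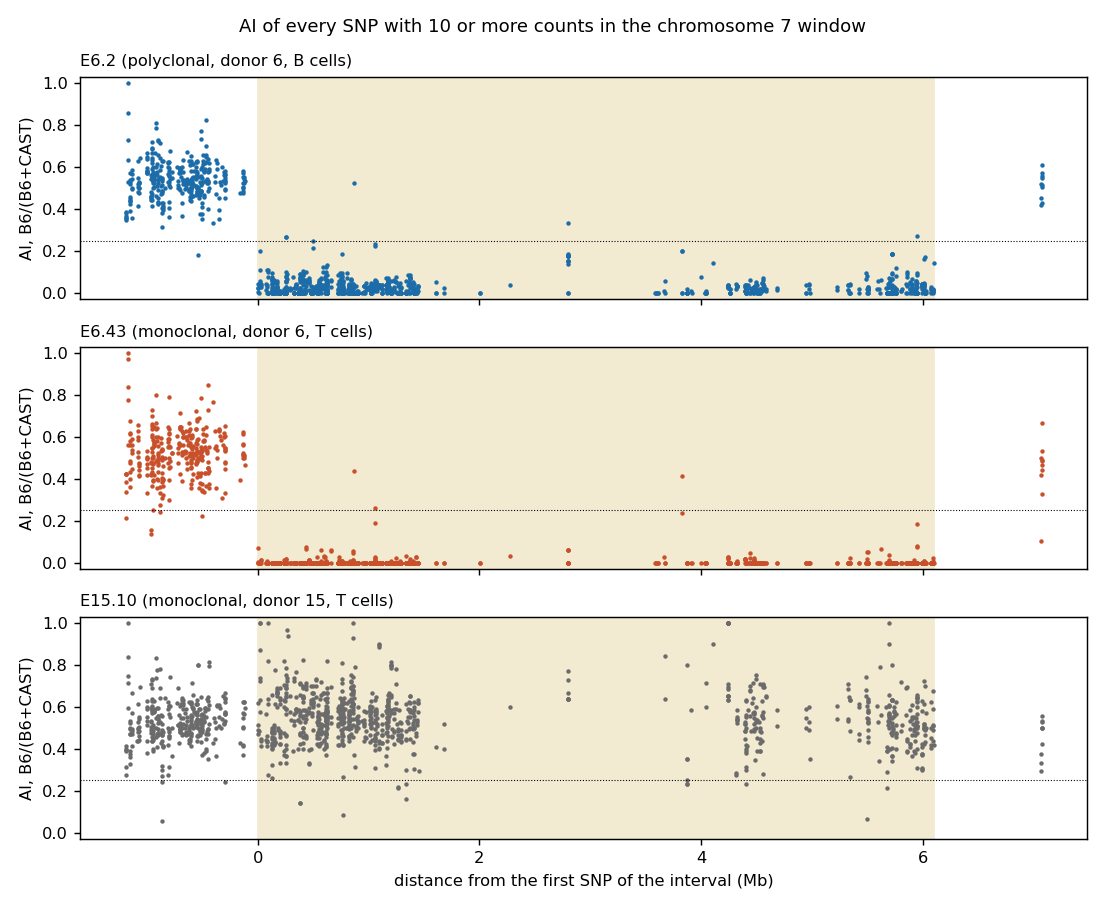
AI of every SNP with 10 or more counts, in a panel for each library, against distance in Mb from the first SNP of the interval, which is shaded, with a dotted line at 0.25. Medians inside the shading are 0.0194, 0 and 0.545, and a few SNPs of E6.2 and E6.43 stand alone above the line.

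At the level of genes, 126 of 127 genes of the interval with 10 or more counts had an AI under 0.25 in the polyclonal E6.2 and 126 of 128 in the monoclonal E6.43, against 0 of 121 in E15.10. Over all autosomal genes, the interval included, the percentages under 0.25 were 2.31%, 2.48% and 1.63%. Outside the window, 396 of 22387, 428 of 22152 and 359 of 21815 autosomal genes were under it. Genes at 0 B6 counts numbered 11 in E6.2 and 81 in E6.43. AI values of 0.0259, 0 and 0.543 were the medians over genes of the interval, where genes outside the window had medians of 0.538, 0.539 and 0.537. None of the 39 genes of the left flank in E6.2, and none of the 40 in E6.43, was under 0.25. The genes above it were *Psenen* in both libraries and *Scgb1b21*, annotated as a pseudogene, in E6.43.

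Genes of blood cells were read from a list of 14, of which 11 lay in the interval with a listed SNP, 2 in the left flank, and 1, *Igflr1*, had no listed SNP. Of the 11, 10 had 10 or more counts, and all 10 were under 0.25 in E6.2 and in E6.43 and none in E15.10. Over the whole interval, 126 of 127, 126 of 128 and 0 of 121 genes were under it. Their median AI was 0.0147, 0 and 0.512 in the 3 libraries, against 0.0259, 0 and 0.543 for all genes of the interval. Summed over the list, 130 of 5316 counts of the polyclonal E6.2 and 5 of 3629 of the monoclonal E6.43 were of B6, against 3257 of 6106 in E15.10. These are counts of DNA, so they say which allele of a gene the cells carried and nothing about whether a B or T cell used it.

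Transcription and chromatin regulators come first. *Cebpa*, the factor that drives granulocyte and monocyte fates, had 2 B6 counts of 161 in the polyclonal E6.2 and 0 of 108 in the monoclonal E6.43, against 132 of 276 in E15.10. Its best covered SNP lies in an untranslated part of its single exon. *Cebpg*, its neighbour and family member, had 17 listed SNPs and only 3 counts in E6.2 and none in the other libraries, so its allele was not measured. *Nfkbid*, a nuclear inhibitor of the NF-kB family needed by B cells, had 19 B6 counts of 499, 2 of 400 and 334 of 622. The value of 0.0381 in E6.2 was the highest among the blood-cell genes of the interval. *Kmt2b*, a histone H3 lysine methyltransferase, had 5 of 298, 0 of 238 and 211 of 430. *Zbtb32*, a repressor of activated lymphocytes, had 1 of 137, 0 of 129 and 114 of 207. *Etv2*, an ETS factor of blood and vessel progenitors, had 0 of 72, 0 of 47 and 32 of 60 counts on its only SNP. None of the 3 genes *Kmt2b*, *Zbtb32* and *Etv2* had a B6 count in E6.43, and the limits that a count of 0 allows there are AI values of 0.0126, 0.0233 and 0.0638. For *Cebpa* the limit in E6.43 is 0.0278. All of these limits but that of *Etv2* rest on counts summed over SNPs, and they are too low where SNPs share read pairs.

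Receptors, their adaptors and membrane proteins followed the same pattern. *Cd22*, an inhibitory coreceptor of B cells that binds sialic acid, was the best covered of the list, with 77 B6 counts of 2594, 0 of 1757 and 1649 of 2836. Its 46 SNPs were the most of any gene of the list, and 0 of 1757 counts would allow an AI of up to 0.00171 if all counts were independent. Neighbouring SNPs share read pairs, so that this limit is too low. The best covered SNP of *Cd22* alone had 0 B6 counts of 134 in E6.43. *Tyrobp*, the DAP12 adaptor of activating receptors on NK and myeloid cells, had 4 of 275, 0 of 115 and 107 of 197. *Hcst*, the DAP10 adaptor next to it, had 0 of 87, 0 of 71 and 39 of 93 on a single SNP, with limits of 0.0345 in E6.2 and 0.0423 in E6.43. These adaptor genes lie side by side on opposite strands, and their 95% intervals overlapped in E6.2, at 0.00567 to 0.0368 for *Tyrobp* and 0 to 0.0423 for *Hcst*. *Ffar2*, a receptor for short-chain fatty acids on leukocytes, had 14 of 652, 1 of 449 and 418 of 906. *Fxyd5*, a regulator of the sodium pump, had 8 of 541, 2 of 315 and 221 of 479. All values of E6.2 and E6.43 lay below every value of E15.10, and those of E6.2 and E6.43 are the ones that placed the interval.

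Signalling genes of the list lay outside, on the centromeric side of the left edge. *Map4k1*, which encodes the kinase HPK1 of lymphocyte receptor signalling, had 656 B6 counts of 1155, 506 of 836 and 635 of 1230, or AI values of 0.568, 0.605 and 0.516. *Rasgrp4*, an activator of Ras in mast cells, had 0.533, 0.524 and 0.55. Both genes kept both alleles in all 3 libraries.

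**Figure D3:**
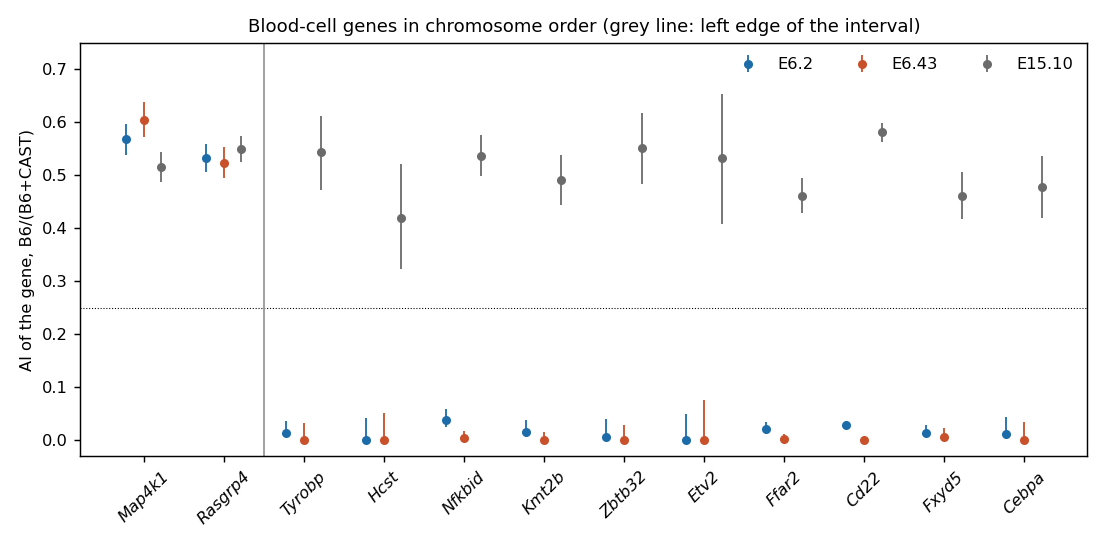
AI of the 12 blood-cell genes with 10 or more counts, in chromosome order, with 95% Wilson intervals, for E6.2, E6.43 and E15.10. Left of the grey line *Map4k1* and *Rasgrp4* are balanced in each library, and right of it the 10 genes of the interval are at or below 0.0381 in E6.2 and E6.43 and between 0.419 and 0.581 in E15.10.

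To show what was counted, the best covered SNP of some of these genes is given with its surroundings on the plus strand of GRCm38 and the SNP in capitals.
*Cd22*, chr7:30877823-30877851: accgagccgaagccAcgtgtcctaaaggc
*Tyrobp*, chr7:30417425-30417453: atcagcggcctgatGcccggatccggtca
*Nfkbid*, chr7:30425882-30425910: gtctgggatgggccGgttatccagatcct
*Kmt2b*, chr7:30585781-30585809: ggaggatcttcatcCataaatcgccgggg
*Cebpa*, chr7:35120799-35120827: actcaaaactcgctCcttttcctaccgag
Each of these SNPs had 0 B6 counts in E6.43. The B6 base was read in 5 of 177 counts of the *Cd22* SNP in E6.2 and in 121 of 217 in E15.10, and in 2 of 95 and 72 of 153 counts of the *Cebpa* SNP.

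Of a list of 17 genes of other tissues, the 14 that lay in the interval were under 0.25 in E6.2 and E6.43, and none in E15.10, where 126 of 127, 126 of 128 and 0 of 121 genes of the whole interval were. The list had medians of 0.031, 0 and 0.551, beside 0.0259, 0 and 0.543 over all genes of the interval. *Hamp*, which encodes the iron hormone hepcidin, had 7 B6 counts of 413 in the polyclonal E6.2 and 0 of 234 in the monoclonal E6.43, against 226 of 378 in E15.10. *Nphs1*, the nephrin of the kidney filter, had 39 of 1607, 1 of 1251 and 1168 of 2031. *Atp4a*, the proton pump of the stomach, had 14 of 974, 0 of 647 and 630 of 1148. *Hamp2*, the second hepcidin gene, had 24 of 813, 0 of 501 and 559 of 1042, and *Kirrel2*, an adhesion protein related to nephrin, had 34 of 1311, 2 of 1069 and 1053 of 1867. Among these genes of liver, kidney and stomach, *Hamp2* had the highest share of B6 counts in E6.2, 2.95%. Nerve genes were next. *Mag*, a protein of myelin, had 12 of 541, 1 of 358 and 426 of 731, and *Aplp1*, of the amyloid precursor family, had 16 of 389, 0 of 263 and 299 of 541. *Lgi4*, a secreted protein of Schwann cells, had 5 of 154, 0 of 84 and 101 of 190. In the skin genes beside *Sbsn*, *Dmkn* had 37 of 1078, 0 of 617 and 601 of 1096, and *Krtdap* had 7 of 205, 0 of 135 and 273 of 389. *Sbsn* itself had 543 of 7169, 313 of 5299 and 3265 of 7013, the most counts of any gene of the interval, and is taken up again below. Genes of sperm were *Gapdhs*, a glycolytic enzyme, with 1 of 26, 0 of 16 and 9 of 14, and *Catsperg2*, with 94 of 2749, 22 of 2071 and 1106 of 2035. *Ryr1*, the calcium release channel of muscle, lay outside with *Catsperg1* and *Tshz3* and was balanced, with AI values of 0.53, 0.546 and 0.526.

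Of 19 genes that most cells use, 15 were listed in the interval. With 10 or more counts, 13 of 14 were under 0.25 in the polyclonal E6.2 and 14 of 15 in the monoclonal E6.43. In E15.10 it was 0 of 14, beside 126 of 127, 126 of 128 and 0 of 121 genes of the whole interval. *Psenen* was the exception of this list in E6.2 and in E6.43. *Gpi1*, the glucose phosphate isomerase of glycolysis, had 7 of 723, 0 of 554 and 262 of 580 B6 counts. *Ankrd27*, an endosomal trafficking protein, had 42 of 2017, 1 of 1582 and 1048 of 2108 and was the best covered gene of this list. *Cox6b1* and *Cox7a1* had no listed SNP.

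Zinc finger genes, most of them in a cluster just inside the left edge, numbered 14 with a symbol that begins with Zfp, all in the interval. Every one was under 0.25 in E6.2 and in E6.43 and none was in E15.10, beside 126 of 127, 126 of 128 and 0 of 121 genes of the whole interval. In E6.2, 299 of 11453 counts of these genes were of B6, in E6.43 only 13 of 7826, and in E15.10 3932 of 7460. *Zfp790* had 44 of 1453, 0 of 1092 and 424 of 937, and *Zfp940* had 34 of 1328, 0 of 958 and 411 of 873. The list reached from just inside the left edge to the last protein-coding gene with a SNP in the interval, since *Zfp507* at the right end, with 17 of 1445, 3 of 886 and 478 of 923, belongs to it.

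B6 counts that remained in the interval differed between the libraries in amount and in place. Over the 872 SNPs with 10 or more counts in each library, they made up 2636 of 82339 counts in E6.2, or 3.2% (95% interval 3.08 to 3.32), and 539 of 57564 in E6.43, or 0.936% (0.861 to 1.02). In E15.10 they made up 41166 of 76958, or 53.5%. These intervals cover counting error only, and neighbouring SNPs share read pairs, so that they are too narrow. In E6.2 the B6 counts were spread over 649 of the 872 SNPs. In E6.43 they sat on 91 SNPs, and the other 781 had none. The paper reports some recipient cells among the donor cells sorted for RNA, and recipients, as F1 animals, carry both alleles. The share of recipient cells in these DNA libraries was not measured here, and their part in the B6 counts was not tested.

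A few SNPs carried most of what was left in E6.43. The 10 SNPs with most B6 counts held 77.9% of them in E6.43 and 26.1% in E6.2, and *Sbsn*, *Psenen* and *Pdcd5* together held 78.1% of those of E6.43. Among genes with 200 or more counts, the share of B6 counts had a median of 2.61% in E6.2, with quartiles of 1.66% and 3.4%, over 93 genes. In E6.43 it had a median of 0.0799% over 79 genes, of which 38 had no B6 count. Of the 93 genes of E6.2, 1 had no B6 count. Without the SNPs at or above 0.25 in either library, which left 868, E6.2 had 2.71% (2.6 to 2.82) and E6.43 had 0.44% (0.389 to 0.498). By megabase from 29 to 36, in bins each bounded by whole megabases and without those SNPs, E6.2 held 2.05% to 2.86% B6 counts in all bins but that from 32 to 33, which had 17.2% on 7 SNPs and 261 counts. E6.43 held 0 to 0.66% over all bins, and the bins at both ends lay within the range of the others in either library.

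**Figure D4:**
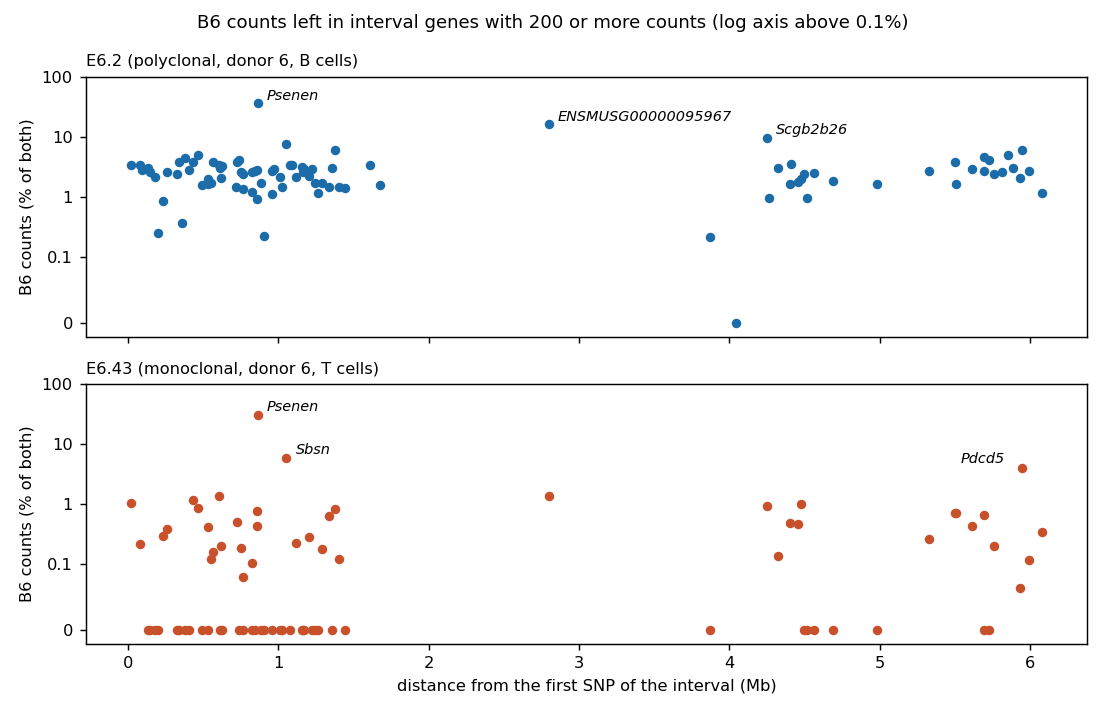
B6 counts as a percentage of both alleles for each gene of the interval with 200 or more counts, against distance in Mb from the first SNP, on an axis that is logarithmic above 0.1%, for E6.2 and E6.43. The quartiles of the genes are 1.66% and 3.4% in E6.2, and 38 of 79 are at 0 in E6.43, while *Psenen* is highest in both.

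In 3 genes B6 counts were high at the same positions in both libraries of donor animal 6. *Psenen*, a subunit of gamma-secretase, has 2 listed SNPs. At 30562043 it had 164 B6 counts of 313 in the polyclonal E6.2 and 79 of 181 in the monoclonal E6.43, against 130 of 203 in E15.10, so this position looked balanced in all libraries. Its other SNP, at 30562913, had 4 of 144, 0 of 75 and 44 of 119, and followed the interval. The 31 bases centred on the first occurred at 3 places in the chromosomes of GRCm38. *Sbsn*, which encodes suprabasin of the skin barrier, had 250 B6 counts of 1077, 196 of 746 and 314 of 694 at 30752317, and 118 of 531, 69 of 365 and 279 of 481 at 30752090. Its other 14 SNPs together had 175 of 5561, 48 of 4188 and 2672 of 5838. The first of these positions lies in a coding repeat: the 31 bases centred on it matched 6 places in the genome, and the 15 bases after it occurred 7 times in the gene at a median spacing of 54.0 bases. In *Pdcd5*, a gene linked to apoptosis, the SNP at 35646149 had 32 of 118, 15 of 82 and 55 of 97, and the remaining 21 SNPs had 33 of 935, 14 of 649 and 542 of 944. The sequences of *Sbsn* and *Psenen* are printed because the position with B6 counts can be seen in its surroundings, and in *Sbsn* nearly the same letters stand before and after the SNP.
*Sbsn*, chr7:30752267-30752367: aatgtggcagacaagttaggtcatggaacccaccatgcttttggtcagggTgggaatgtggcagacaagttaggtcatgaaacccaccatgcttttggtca
*Psenen*, chr7:30562029-30562057: tagtccccaagagcGccccagcggggccg
Whether reads of the other copies took part in these counts was not tested.

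The other SNPs at or above 0.25 were thinly covered or stood in one library. In E6.2 they were a pair in *C230062I16Rik* with 4 of 15 counts each, one in *Capns1* with 3 of 12, and one of ENSMUSG00000095967 with 14 of 42. In E6.43 it was 1 SNP of *Scgb1b21* with 7 of 17. Closest to the threshold from below were *Sbsn* at 30752317 with 0.232 in E6.2 and *Scgb1b21* at 33527405 with 0.235 in E6.43, and from above *Capns1* with 0.25 in E6.2 and *Sbsn* with 0.263 in E6.43. *Scgb2b26*, a secretoglobin, had 98 B6 counts of 1012 in the polyclonal E6.2 and 7 of 764 in the monoclonal E6.43, against 511 of 641 in E15.10, where its AI of 0.797 was above the LOH limit of 0.75 on the side of B6. The unnamed gene ENSMUSG00000095967 had 74 of 451, 3 of 220 and 80 of 122. Secretoglobins form a family of similar genes, and how reads were shared among them was not tested.

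Counts of the CAST allele bear on how much DNA of the interval was read. In E6.2 the interval had 1.27 times (95% interval 1.26 to 1.29) the CAST counts of E15.10, and in E6.43 1.35 times (1.33 to 1.37). Each library was scaled to its CAST counts on autosomes outside the window. These 95% intervals cover counting error only, and neighbouring SNPs share read pairs, so that they are too narrow. The left flank had 0.521 times in E6.2 and 0.571 times in E6.43, and the right flank 0.579 and 0.698 times. CAST counts of the interval were thus 2.44 times those of the flanks in E6.2 and 2.35 times in E6.43, on the same scale, while counts of both alleles were 1.15 and 1.1 times those of the flanks. B6 counts fell to 0.0369 and 0.0109 times those of E15.10 in the interval and were 0.528 and 0.561 times in the flanks. From the flanks to the interval, each taken as a whole, the ratio to E15.10 was therefore higher for CAST and lower for B6. The sum of both differed less than either. Where along the chromosome CAST counts changed was not tested.

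In E6.2 the median GC content within 10000 bp of the SNPs was 0.488 in the interval and 0.506 in the flanks. On autosomes outside the window it was 0.447. In the same order, the medians were 0.489, 0.506 and 0.448 in E6.43 and 0.49, 0.506 and 0.453 in E15.10. Counts of both alleles in the flanks were 0.525 times those of E15.10 in E6.2 and 0.568 times in E6.43. Set against autosomal SNPs of like GC content within 150 bp and within 10000 bp, CAST counts of the interval were 1.75 times those of E15.10 in E6.2 and 1.78 times in E6.43, and those of the flanks 0.81 and 0.838 times. Counts of both alleles were then 0.833 and 0.825 times in the interval and 0.828 and 0.84 times in the flanks. On this scale the interval had 2.16 and 2.12 times the CAST counts of its flanks, and 1.01 and 0.982 times the counts of both alleles. This weighting was added after seeing the data. Zinc finger genes, compared with zinc finger genes elsewhere on the autosomes, had CAST counts 1.75 times as high relative to E15.10 in E6.2 and 1.81 times in E6.43.

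Per gene, the CAST ratio to E15.10 was broad. Among 98 genes of the interval with 50 or more CAST counts in both libraries it had a median of 1.17 in E6.2, with quartiles of 0.96 and 1.68, and of 1.25 in E6.43, with quartiles of 1.02 and 1.71. The genes of the left flank had medians of 0.491 and 0.567, and genes on autosomes outside the window had medians of 0.922 and 0.952, with quartiles of 0.631 and 1.47 in E6.2. The median of the interval therefore lay within the quartiles of autosomal genes. *Uba2*, a subunit of the SUMO-activating enzyme, had CAST ratios of 2.51 and 2.61 in E6.2 and E6.43, and *Cebpa* had 0.62 and 0.629, so that a single gene gave no reading of copy number. E15.10 is 1 library of another donor, and copy number was not measured by another method here. The paper's methods report a large deletion shared by all samples of experiment E6 and do not give its position. Whether that deletion is this interval was not tested.

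**Figure D5:**
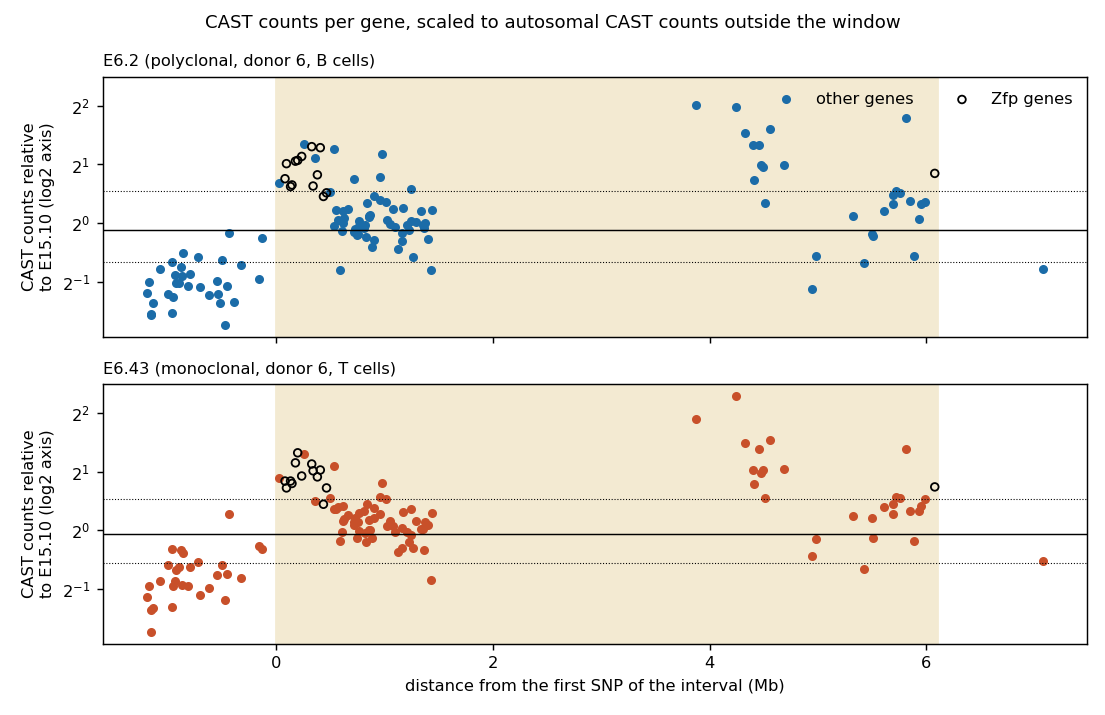
CAST counts of each gene with 50 or more, relative to E15.10 and scaled to autosomal CAST counts outside the window, against distance in Mb from the first SNP of the shaded interval, on a log2 axis, with open circles for Zfp genes. The solid and dotted lines give the median and quartiles of autosomal genes outside the window; flank genes have medians of 0.491 and 0.567 and interval genes of 1.17 and 1.25 in E6.2 and E6.43.

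E15.10, of donor animal 15, was balanced over the same SNPs. Its 12 SNPs of the interval under 0.25 lay in 8 genes, and the best covered of them, in *Lsr*, had 10 B6 counts of 46. On the other side, 48 SNPs were over 0.75. Its summed AI was 0.538 in the interval, 0.522 in the left flank and 0.468 in the right flank, which rests on 10 SNPs of *Tshz3*.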

How the data were processed

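Exome DNA was captured by the authors with the Agilent SureSelect Mouse All Exon kit and sequenced as read pairs. Read alignment and allele counting followed their ASEReadCounter* pipeline. The submitters' processing notes name cutadapt 1.14, Trim Galore, STAR 2.5.4a, SAMtools and GATK, and the build GRCm38. The settings for exome reads are not given in the sources used here, so alignment in favour of the B6 reference or shared reads of gene families could shift AI. For each library the authors deposited raw counts of the maternal (B6) and paternal (CAST) allele per gene, with another kind of column, comma lists of SNP positions and their counts. A deposited table of the series repeats the counts and the fraction AI of genes with 90 or more counts, and its totals were equal for every gene of the interval it lists. Its intervals, p-values and calls from the authors' own test were not used. Columns of other samples numbered 0.

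AI was computed as B6 over total counts with Python 3.11.15, pandas 2.3.3 and scipy 1.17.1. Genes needed 10 counts, and 0.25 and 0.75 were the LOH limits of genes, both as in the study's methods, and the same limits were applied here to SNPs. Wilson 95% intervals, and limits of 3 counts at 0, cover counting error only. For genes and other sums over SNPs they are too narrow where neighbouring SNPs share read pairs. The edge search was run on simulated binomial counts without outlier SNPs. Ties went there to the longer interval, so the choice made for the right edge of E6.43 was not tested. Gene names and features came from GENCODE M21, in which 195 of the 200 genes of the window were found. Sequences were read from the RefSeq copy of GRCm38. CAST ratios were summed CAST counts relative to E15.10, scaled to autosomes outside the window. GC strata were 4% wide within 150 bp and 2% wide within 10000 bp of a SNP, and needed 500 CAST counts of E15.10 outside the window. The named genes were all members of the blood-cell and tissue lists with 10 counts, those at the edges, the 3 with most B6 counts in each library of donor animal 6, the 3 with most counts, and a few well covered ones of the other lists. The values of 1 member of the tissue list are not reported here. *Lsr*, *Scgb1b21*, *Capns1*, *C230062I16Rik*, *Uba2* and ENSMUSG00000095967 were named after their values were seen. The window, its members and the gene lists were chosen with earlier results of these data known. The labels give the E6.2 B cells as splenic and the methods as of bone marrow, and no result uses this.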

Additional observations from a re-analysis of the deposited data

How the results depend on the processing

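No paired analysis was possible because each group holds 1 library and no result comes from a test, and for the same reason no replicate could be left out. The left edge stayed at its SNP in both libraries under every alternative. The right edge of E6.43 moved to 35795310 with 20 counts per SNP and to 36769028 with ties given to the longer interval, and that of E6.2 did not move. Residual B6 counts were 3.04% in E6.2 and 0.755% in E6.43 with SNPs 300 bp apart, 2.04% and 0% as the median of SNPs, and 2.71% and 0.44% without the SNPs at or above 0.25, and those of E15.10 were 53.9% with any covered SNP. SNPs under 0.25 with SNPs 300 bp apart numbered 450 of 452 in E6.2, beside 435 of 436 for E6.43 and 3 of 440 for E15.10, where fewer SNPs enter by construction. In E15.10 they numbered 3 with 20 counts, 0 with SNPs balanced there, again by construction, and 2 at AI under 0.1. Counts of genes under 0.25 stayed within 1.5 times. CAST ratios to E15.10 in E6.2 and E6.43 were 2.44 and 2.35 scaled to the flanks, 1.3 and 1.38 with SNPs 300 bp apart, 1.19 and 1.29 as the median of SNPs, 1.31 and 1.39 with SNPs balanced in E15.10, 1.37 and 1.44 by GC content within 150 bp, 1.75 and 1.78 by GC content at both scales, and 1.75 and 1.81 in zinc finger genes, and 1.25 in E6.2 scaled to the rest of chromosome 7. The ratio stayed above 1 in each, and the cause of its range was not tested. For named genes, 171 of 215 AI values under alternatives lay inside the 95% interval of the value given, and 1 changed its side of 0.25, *Psenen* in E6.43, with 0.218 as the median of its SNPs. Alternatives of tied edges, GC content at both scales, zinc finger genes and the SNPs at or above 0.25 were added after seeing the data. Depth limits the right edge, where 10 counts of E6.43 stand behind the last SNP, and genes with few SNPs such as *Etv2* and *Hcst*.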

Other observations

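Some positions of the interval were read with counts of the B6 allele alone in E15.10. In *Scgb2b26*, the SNP at 33944273 had 17 B6 counts of 17 in E15.10, where E6.2 had 3 of 9 and E6.43 had 0 of 8. The SNP at 33944977 of the same gene had 28 of 43, 4 of 120 and 2 of 87 in E15.10, E6.2 and E6.43. The gene thus held positions with no CAST count beside positions with both alleles in 1 library, and the SNPs share reads. *Cebpg* had 17 listed SNPs and almost no counts in any library, while *Cebpa*, its neighbour, was read at 276 counts in E15.10.

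In the left flank, 5 of 322 SNPs of E6.43, 1 of 331 of E6.2 and 3 of 335 of E15.10 were under 0.25. These were 1.55%, 0.302% and 0.896%, beside 2.48%, 2.31% and 1.82% of SNPs over all autosomes. Those of E6.43 were in *Ifnl2* with 20 B6 counts of 94, *Fbxo17* with 9 of 57 and 7 of 51, *Hnrnpl* with 6 of 25 and *Catsperg1* with 4 of 18, and that of E6.2 was in *Fam98c* with 2 of 11. None of those named lay next to the left edge. No other SNP of E6.2 or E6.43 between *Catsperg1* and the edge was under the threshold.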
